A study of Mus musculus with 12 samples.

Results

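Respiratory complex I, the NADH:ubiquinone oxidoreductase of the mitochondrial inner membrane, was followed through its nuclear genes in the mouse soleus, a calf muscle in which slow, oxidative fibres are common. Its members here are the protein-coding genes whose symbol begins with Nduf in the deposited tables. There were 47 such genes among 28997, of which 39 carry the name of a subunit and 8 are Ndufaf assembly factors. Another 6 Nduf entries are processed pseudogenes in the tables and were left out. The member Ndufb1-ps is protein coding in the tables although its symbol reads as a pseudogene, and RefSeq lists it as Ndufb1.

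RNA from 12 mice was made into stranded mRNA libraries. The labels describe 4 groups of 3 mice: Cdh5Cre-NOX1CKO mice on a high fat diet, Cdh5Cre-NOX1CKO mice on a chow diet, Cdh5cre-WT mice on a high fat diet and Cdh5cre-WT mice on a chow diet, each diet lasting 8 weeks. All 4 groups carried the Cdh5-driven Cre, whose promoter is that of an endothelial gene, and the knocked-out gene Nox1 encodes an NADPH oxidase. Deletion was thus aimed at endothelial cells and not at the muscle fibres. The deposited files are 4 tables of group comparisons made by the authors, G3 versus G1, G4 versus G2, G2 versus G1 and G4 versus G3. No label ties these codes to a genotype or a diet. The groups are therefore named by code, and none of the values can be laid to either factor. The question named in the series title is whether NOX1 of endothelial cells bears on obesity through the mitochondria of muscle. Nox1 itself had a total of 25.2 normalised reads over the 12 libraries, too few to check the genotype labels, where the libraries averaged 24905255 reads. Cdh5 did not pass the test in any comparison. The slow fibre myosin Myh7 (1624 CPM per kilobase) and the fast fibre myosin Myh1 (1248) were both abundant.

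Complex I takes electrons from NADH, passes them to ubiquinone and pumps protons, and it is the entry point of most electrons into the respiratory chain of muscle. It is L-shaped, with a matrix arm made of the N module, which oxidises NADH, and the Q module, which reduces ubiquinone, and with a membrane arm that pumps protons. The core of the membrane arm is encoded by mitochondrial DNA, whereas the core of the matrix arm and all accessory subunits are encoded in the nucleus. The enzyme is put together from preformed modules by assembly factors that do not stay in the finished complex.

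A gene counts as called if it passed an adjusted p of 0.05. Of all genes tested, 0.00345% to 1.38% were called in the 4 comparisons or in the interaction between them. None of the 47 members was called in any of these. The value farthest from 0 was the log2 of the assembly factor Ndufaf6 in G4 versus G2 (0.36), and the smallest p-value was that of the subunit Ndufa3 in the same comparison (log2 0.26, p = 0.00143, adjusted p = 0.0796 in the authors' deposited table). The subunits lay mostly on the same side of 0 within a comparison, by medians between -0.05 and 0.07 in the 4 comparisons. The log2 values of all genes carried a trend with GC content, transcript length and total. With the trend taken out, the direction of the subunits turned in G4 versus G3, where 11 of 39 subunits were positive in place of 36, and ended in G3 versus G1, where 21 were positive in place of 8. In these bulk samples, fewer cells of a type and less RNA per cell cannot be told apart. The tables hold no value per library, so a group is given by its mean only and its own spread is unknown. The standard error implied by the p-values was nearly the same for a gene in all 4 comparisons, for Ndufa4 0.083 in each. The p-values therefore do not measure the spread between the 3 mice of a single group.

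Several members have near-identical copies elsewhere in the genome that drew reads of their own, and the sequences are shown because they set how far the level of such a gene can be read. Ndufb4, an accessory subunit of the distal membrane arm (chr16:37647170-37654453, minus strand, GRCm38), matches the processed pseudogene Ndufb4c (chr15:73809507-73809896, minus strand) over 390 aligned bases at 100% identity. Ndufs6, a zinc-binding subunit of the N module (chr13:73319838-73328542, minus strand), matches Ndufs6b (chr7:81161397-81161744, minus strand) at 96.6%. Ndufs3, a core subunit of the Q module (chr2:90894634-90904827, minus strand), matches Gm12251 (chr11:58392769-58393560, minus strand) at 98.6%. The first 120 coding bases of each member, from GENCODE M21, stand above the matching bases of its copy, and capitals mark bases that differ within a pair.
Ndufb4: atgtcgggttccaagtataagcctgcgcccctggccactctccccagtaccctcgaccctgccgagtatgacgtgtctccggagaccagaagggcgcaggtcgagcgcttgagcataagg
Ndufb4c: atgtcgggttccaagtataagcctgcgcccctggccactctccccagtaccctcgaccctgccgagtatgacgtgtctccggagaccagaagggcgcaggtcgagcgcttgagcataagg
Ndufs6: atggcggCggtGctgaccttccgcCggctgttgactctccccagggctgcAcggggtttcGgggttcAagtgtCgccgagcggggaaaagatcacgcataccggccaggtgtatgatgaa
Ndufs6b: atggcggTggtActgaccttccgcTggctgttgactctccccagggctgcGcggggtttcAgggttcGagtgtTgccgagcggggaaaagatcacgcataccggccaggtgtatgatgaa
Ndufs3: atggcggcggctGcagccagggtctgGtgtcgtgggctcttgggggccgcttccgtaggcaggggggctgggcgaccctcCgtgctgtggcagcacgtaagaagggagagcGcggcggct
Gm12251: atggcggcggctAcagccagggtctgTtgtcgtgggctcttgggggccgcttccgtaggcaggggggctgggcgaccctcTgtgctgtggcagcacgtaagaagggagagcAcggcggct
No base differs in the window of Ndufb4, 7 differ in that of Ndufs6 and 4 in that of Ndufs3. These windows were chosen for the most differing bases, and no other stretch of 120 aligned coding bases of a pair held more. A read from such a stretch can be assigned to a gene only where it covers a differing base or reaches beyond the copy.

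Reads were split between these genes and their copies. Of the reads summed over the 12 libraries, Ndufb4 was given 3416 and Ndufb4c 26947, so the copy held 88.8% of the pair. Ndufs6 was given 11672 and Ndufs6b 12699 (52.1% in the copy), and Ndufs3 was given 39309 and Gm12251 23048 (37.0%). Ndufab1, the mitochondrial acyl carrier protein that also serves as a subunit of complex I, held 38.5% of the reads it shares with Gm4459 and Ndufab1-ps. Ndufb11 held 82.2% beside Gm6444, and the copy of Ndufb3 drew almost none. A further 3 members share their name with a pseudogene that did not pass the sequence match: Ndufa12-ps had a total of 20196 beside 24779 for Ndufa12, Ndufs5-ps 13050 beside 13886 for Ndufs5, and Ndufa11b 3789 beside 26496 for Ndufa11. Of these 9 members, Ndufb3 was at 151 CPM per kilobase with or without its copy, and the levels of the others are uncertain. Adding the reads of the copies to the 6 members matched by sequence moved the median log2 of the subunits by less than 0.01 in each of the 4 comparisons. That check was chosen after the data were seen.

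**Figure D1:**
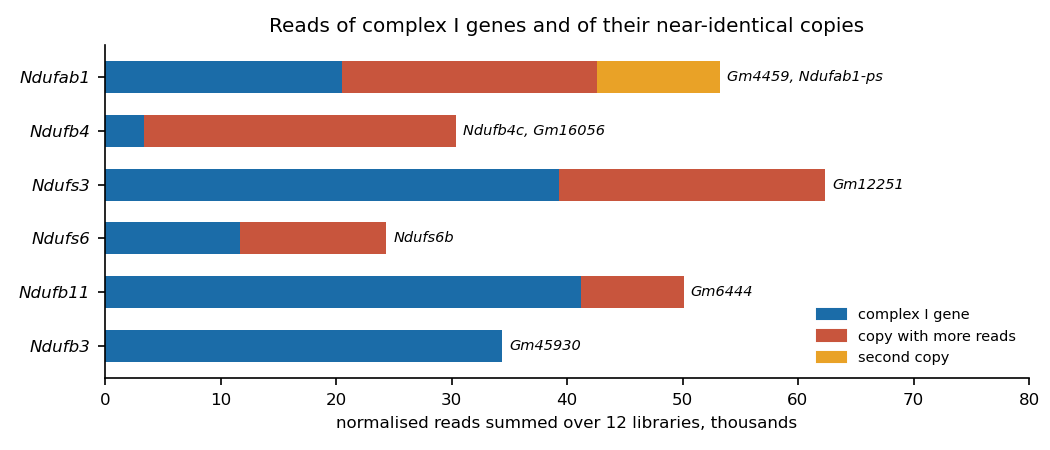
Normalised reads summed over 12 libraries (x axis, in units of 1000 reads) of the 6 complex I genes with copies matched by sequence (blue) and of those copies (red and yellow), 1 bar per gene. The copy Ndufb4c holds 88.8% of the reads of its pair, and the member Ndufb3 nearly all of its own.

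Subunit genes were expressed far above assembly factor genes. Levels are each gene's share of all summed normalised reads in CPM, divided by transcript length in kilobases. The median level of the 39 subunits was 148, that of the 8 assembly factors 8.85. The subunit totals were at least 2533 normalised reads over the 12 libraries and those of the assembly factors ran from 1693 to 10942, so every member passed the minimum total of 100 used for the fits across all genes. The highest level belonged to Ndufa4 (506), which is named as a complex I subunit but has been placed in complex IV, the cytochrome c oxidase. It had 518 in G4, 497 in G3, 500 in G2 and 508 in G1. Its paralogue Ndufa4l2, known in other settings as a gene induced by low oxygen, had the lowest level of all subunit-named genes with 9.08, and was at 8.62 in G4, 9.24 in G3, 8.26 in G2 and 10.2 in G1.

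Next in level came Ndufb9 (394), Ndufb10 (344), Ndufa6 (342) and Ndufb5 (338), 3 accessory subunits of the distal membrane arm and 1 of the N module. At the lower end after Ndufa4l2 stood Ndufb4 (11.8), Ndufab1 (28.0), Ndufb2 (30.6) and Ndufs4 (65.0). With the reads of their copies added, Ndufb4 came to 105 and Ndufab1 to 72.7, and Ndufs6 to 144 in place of 68.8. The values of Ndufb2 and Ndufab1 also rest on median transcript lengths of 2413 and 2447.5 bases, since GENCODE lists long isoforms beside the short ones. The spread of a level over mice is unknown, so the order of neighbours in this ranking was not tested.

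The core subunits of the matrix arm, 7 genes, include those that hold the flavin and the iron-sulfur clusters. Ndufv1, which binds NADH and the flavin, was at 279 in G4, 267 in G3, 259 in G2 and 264 in G1. Ndufs8, an iron-sulfur subunit of the Q module, was the lowest of the 7 with 112 in G4, 107 in G3, 108 in G2 and 112 in G1. By module, the median level was 125 for the N module (10 genes), 163 for the Q module (6), 140 for the proximal membrane arm (9) and 151 for the distal membrane arm (12).

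The assembly factors ran from 5.72 for Ndufaf7, a methyltransferase that modifies a core subunit, to 25.2 for Ndufaf1, which works in the assembly complex of the membrane arm. Ndufaf1 was at 25.3 in G4, 25.8 in G3, 23.6 in G2 and 26.3 in G1. Ndufaf5, a hydroxylase that acts on Ndufs7 in human cells, had 11.9 in G4, 10.7 in G3, 12.6 in G2 and 11.4 in G1. Ndufaf6, which acts early on the ND1 module, had 7.84 in G4, 8.07 in G3, 6.12 in G2 and 7.03 in G1. Summed over all subunits the level before division by length was 5914 CPM in G4, 5651 in G3, 5625 in G2 and 5807 in G1.

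**Figure D2:**
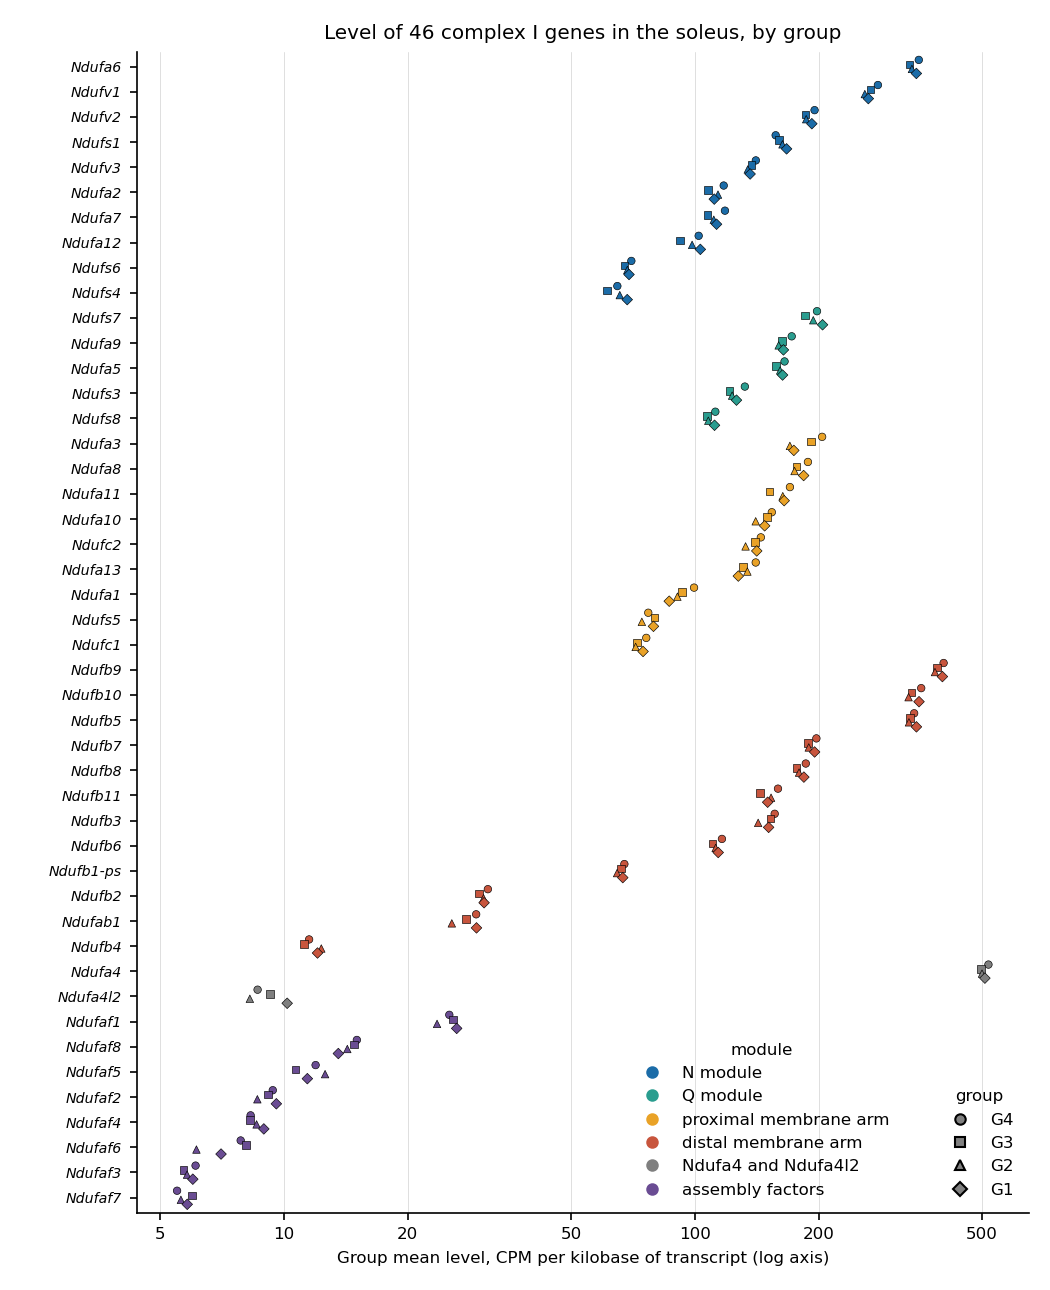
Group mean level (x axis, CPM per kilobase of transcript, log axis) of 46 of the 47 complex I genes (rows, ordered within modules), with 1 marker for each of G4, G3, G2 and G1. Within a gene the markers nearly coincide, while genes range from 5.72 for Ndufaf7 to 506 for Ndufa4.

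In G3 versus G1, 31 of 39 subunits had negative values and the median log2 was -0.05, where 50.1% of all 15494 genes with a total of at least 100 had positive values and their median was 0.00. Once the trend was taken out, 21 of 39 were positive with a median of 0.00. No member was called, with 0.21% of all genes called in this comparison. At an unadjusted p of 0.05, 2 members passed, where 5.63% of the 15494 genes did. These were both accessory subunits of the N module. Ndufa12 (chr10:94198720-94221443), which takes the place of the assembly factor Ndufaf2 at the end of assembly, was at 92.1 in G3 and 103 in G1, a log2 of -0.16 with a standard error (SE), derived from the log2 and its p, of 0.08 (p = 0.0340, adjusted p = 1 in the authors' deposited table). Ndufs4 (chr13:114287795-114388258), whose loss in mice and humans impairs the complex, was at 61.1 in G3 and 68.4 in G1, with a log2 of -0.16 and an SE of 0.08 (p = 0.0442, adjusted p = 1 in the authors' deposited table).

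The third lowest subunit was the core subunit Ndufs7 with a log2 of -0.14 and an SE of 0.09. At the other end, Ndufa3 had 0.14 with an SE of 0.08, Ndufa1 0.11 with 0.11 and Ndufa13, also known as GRIM-19, 0.04 with 0.08. These 3 belong to the proximal membrane arm, whose 9 genes had a median log2 of 0.01 with 5 positive, whereas the medians were -0.05 for the N module, -0.06 for the Q module and -0.05 for the distal arm. Among the assembly factors, Ndufaf4 was lowest (log2 -0.11, SE 0.09) and Ndufaf6 highest (0.20, SE 0.17), with a median of -0.05 and 3 of 8 positive. The 95% intervals of 36 of 39 subunits lay within a 1.25-fold change in either direction and those of all 39 within 1.5-fold. At the median SE of the subunits, a log2 of 0.32 would have been needed for a call.

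In G4 versus G2, 36 of 39 subunits were above 0 (median log2 0.06), where 50.1% of the 15494 genes were positive with a median of 0.00. With the trend taken out, 27 of 39 were positive and the median was 0.01. No member was called, where 1.38% of the genes with an adjusted p were, and 2 members had an unadjusted p under 0.05, where 9.06% of the 15494 genes did. Ndufa3 (chr7:3617373-3620327), a small accessory subunit of the proximal membrane arm, was at 204 in G4 and 170 in G2, a log2 of 0.26 with an SE of 0.08 and a 95% interval of 0.10 to 0.42 (p = 0.00143, adjusted p = 0.0796 in the authors' deposited table). It would be called at an adjusted p of 0.1. Ndufaf6 (chr4:11051045-11076205) was at 7.84 in G4 and 6.12 in G2, with a log2 of 0.36 and an SE of 0.17 (p = 0.0381, adjusted p = 0.484 in the authors' deposited table).

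After Ndufa3, the highest subunits were Ndufab1 with a log2 of 0.20 and an SE of 0.11, and Ndufa1 with 0.13 and an SE of 0.11. Those with negative values were Ndufb4 (-0.10, SE 0.14), the core subunit Ndufs1 (-0.06, SE 0.07), which carries several iron-sulfur clusters, and Ndufs4 (-0.02, SE 0.08). With the reads of its copies added, Ndufb4 was at 0.01. The medians were 0.05 for the N module, 0.08 for the Q module, 0.11 for the proximal arm with all 9 positive, and 0.06 for the distal arm. The assembly factors had a median of 0.07, with 5 of 8 positive and Ndufaf5 lowest at -0.08 with an SE of 0.14. Intervals of 34 of 39 subunits lay within 1.25-fold in either direction and all within 1.5-fold, and a log2 of 0.28 at the median SE would have been needed for a call.

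In G2 versus G1, 34 of 39 subunits had negative values with a median log2 of -0.04, where 49.7% of the 15494 genes were positive. Without the trend, 6 were positive in place of 5 and the median was again -0.04. The deposited table lists the genes with a log2 of 0 or below, and the positive values of 7 members were rebuilt from the other 3 comparisons. No member was called, where 0.00345% of all genes were, and only the assembly factor Ndufaf1 (chr2:119655446-119662827) had an unadjusted p under 0.05, where 2.35% of the 15494 genes did. It was at 23.6 in G2 and 26.3 in G1 (log2 -0.16, SE 0.08, p = 0.0494, adjusted p = 1 in the authors' deposited table).

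Ndufa4l2 was the lowest subunit in G2 versus G1 with a log2 of -0.30 and an SE of 0.17, followed by Ndufab1 with -0.20 and an SE of 0.11 and by Ndufs5 with -0.09 and an SE of 0.11. The highest were Ndufa13 (0.07, SE 0.08), Ndufa1 (0.07, SE 0.11) and Ndufb4 (0.03, SE 0.13), all rebuilt. With the reads of its copies added, Ndufb4 was at -0.03. All 7 core subunits and all 6 genes of the Q module were negative, and the median of the core subunits was -0.05. Among assembly factors Ndufaf6 was lowest at -0.20 with an SE of 0.17, and Ndufaf5 highest at 0.14 with an SE of 0.14, a rebuilt value. Intervals of 37 of 39 subunits lay within 1.25-fold in either direction.

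In G4 versus G3, 36 of 39 subunits were above 0 (median log2 0.07), where 50.9% of the 15494 genes were positive with a median of 0.00. In the shortest decile of all genes by transcript length, 65.9% were positive with a median of 0.07. With the trend taken out, the direction turned, with 11 of 39 subunits positive and a median of -0.02. No member was called, where 0.0394% of the genes with an adjusted p were. Only Ndufa11 (chr17:56717767-56722141), an accessory subunit of the proximal membrane arm, had an unadjusted p under 0.05, where 4.83% of the 15494 genes did. It was at 170 in G4 and 152 in G3 (log2 0.17, SE 0.08, p = 0.0448, adjusted p = 0.9997 in the authors' deposited table). Ndufa12 came next with 102 in G4 and 92.1 in G3 (log2 0.15, SE 0.08), and Ndufb11, an X-linked subunit of the distal arm, had 159 in G4 and 144 in G3 (0.14, SE 0.09). The 3 negative values were those of Ndufa4l2 (-0.10, SE 0.18), Ndufs5 (-0.05, SE 0.11) and Ndufs1 (-0.03, SE 0.07). All 12 genes of the distal arm and all 6 of the Q module were positive, with medians of 0.07 and 0.07. Of the assembly factors, Ndufaf5 was highest at 0.16 with an SE of 0.15 and Ndufaf7 lowest at -0.12 with an SE of 0.11, and their median was 0.02.

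**Figure D3:**
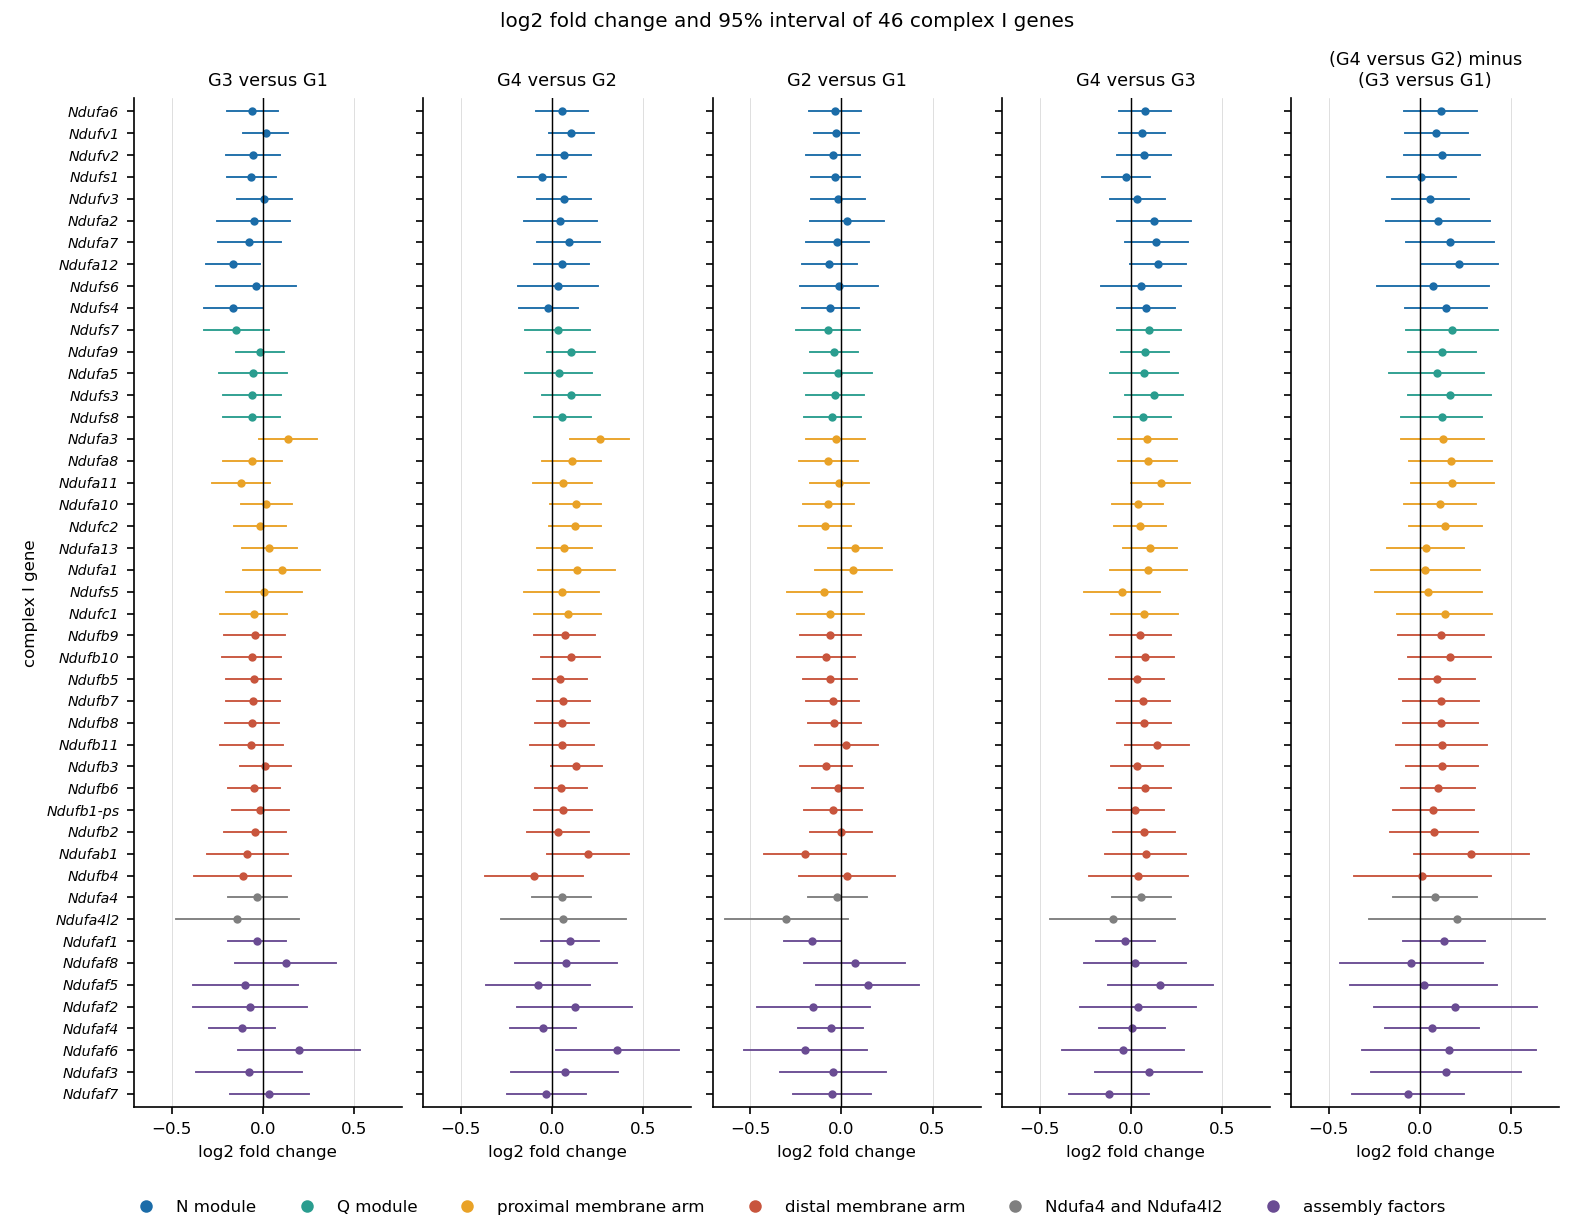
log2 fold change (x axis) with its 95% interval (line) of 46 of the 47 complex I genes (rows, coloured by module) in the 4 comparisons and, at the right, in their interaction. Over all 47 members, the intervals of 45 hold 0 in G3 versus G1, 45 in G4 versus G2, 46 in G2 versus G1, 46 in G4 versus G3 and 46 in the interaction.

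Whether G4 differed from G2 as G3 differed from G1 was tested as an interaction, the log2 of G4 versus G2 minus that of G3 versus G1, in which a positive value is a higher ratio in the first pair. All 39 subunits had positive values, with a median of 0.12, where 51.5% of the 15494 genes were positive with a median of 0.01. Without the trend, 24 of 39 were positive with a median of 0.02. None was called, where 0.00645% of the 15494 genes were. Only Ndufa12 had an unadjusted p under 0.05, where 4.12% of the genes did. Its log2 was 0.22 with an SE of 0.11 (unadjusted p = 0.0468 from a normal z test of its log2 against its own SE). The highest value was that of Ndufab1 (0.28, SE 0.16) and the lowest that of Ndufs1 (0.01, SE 0.10). A value of 0.54 at the median SE of the subunits would have been needed for a call. The assembly factors ran from -0.07 for Ndufaf7 (SE 0.16) to 0.19 for Ndufaf2 (SE 0.23), with 6 of 8 positive. The 5 contrasts share their 4 groups, so the signs of a gene in them are not independent of each other.

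Values of G4 versus G3 and of the interaction fell with transcript length over all genes, and complex I subunits are short. Their median transcript length was 838 bases, that of the assembly factors 1308.5, and that of all genes with a total of at least 100 was 2454. In the shortest decile of all genes, up to 772 bases long, the 18 subunits had a median log2 of 0.07 in G4 versus G3, as did the decile itself. In the second decile, up to 1195 bases, it was 0.06 for all genes and 0.08 for 10 subunits, and in the longest decile it was -0.09 for all genes, with no subunit. In the interaction, the subunits lay above their decile. The medians were 0.10 for subunits and 0.07 for all genes in the shortest decile, and 0.15 and 0.08 in the second. In G4 versus G2 they were 0.06 for subunits and 0.03 for all genes in the shortest decile, and 0.06 and 0.02 in the second. The trend on GC content, length and total together took 12.9% of the variance of z in G4 versus G3, 9.67% in the interaction, 4.67% in G4 versus G2, 3.51% in G3 versus G1 and 1.55% in G2 versus G1.

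**Figure D4:**
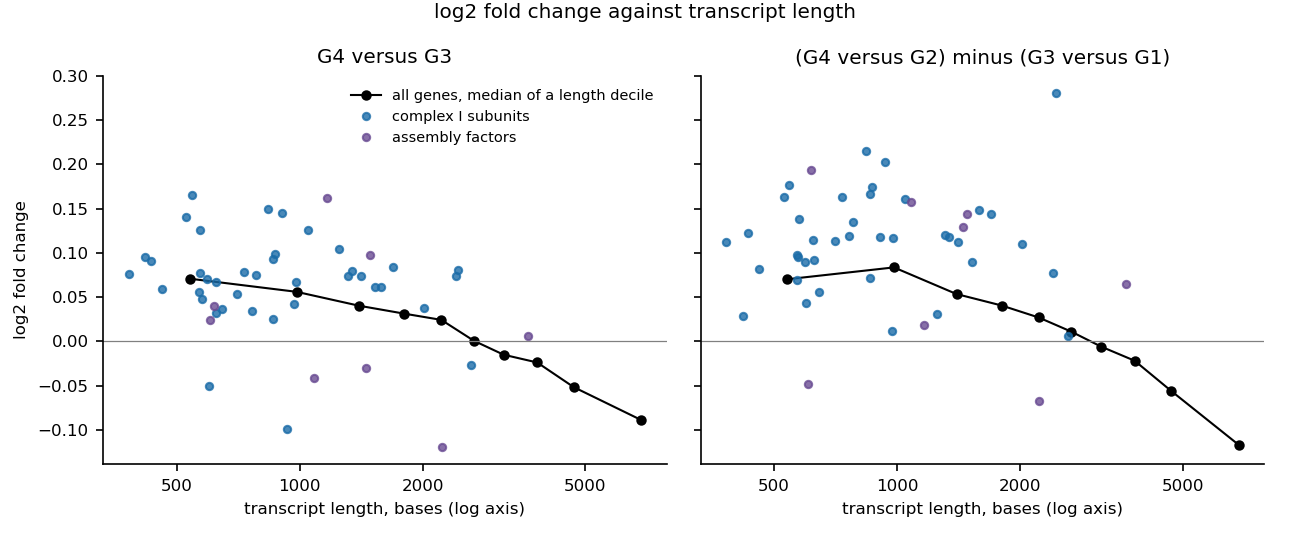
log2 fold change (y axis) against transcript length (x axis, bases, log axis) in G4 versus G3 (left) and in the interaction (right), for 39 subunits (blue), 8 assembly factors (purple) and the medians of all genes in deciles of length (black). The black line falls in G4 versus G3 to -0.09 in the longest decile, and the subunits lie at its short end.

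The mitochondrially encoded subunits, which form the core of the membrane arm, did not lie on the same side of 0 as the nuclear subunits in every comparison. Their summed level was 80049 CPM in G4, 82342 in G3, 69129 in G2 and 74309 in G1. None of the 7 was called in any of the 4 comparisons, where 0.00345% to 1.38% of the genes tested were. In G3 versus G1 all 7 mt-Nd genes were positive with a median log2 of 0.14, beside the nuclear subunits' -0.05. In G4 versus G2 all 7 were positive with a median of 0.18. Of these, 5 had an unadjusted p under 0.05, where 9.06% of the 15494 genes did. The highest values were 0.28 for mt-Nd3 (SE 0.12) and 0.27 for mt-Nd2 (SE 0.11, adjusted p = 0.272 in the authors' deposited table). In G2 versus G1 none was positive (median -0.12), and in G4 versus G3 only mt-Nd1 was (median -0.04), where 36 of 39 nuclear subunits were positive. With the trend taken out, the order in G4 versus G3 turned round, with 4 of 7 mt-Nd genes positive (median 0.01) and 11 of 39 nuclear subunits (median -0.02). In the other comparisons the medians of the mt-Nd genes were then 0.17 in G3 versus G1 and 0.15 in G4 versus G2, with 7 of 7 positive in each, and -0.03 in G2 versus G1, with 1 of 7 positive. Genes of a set were measured in the same libraries and are not replicates of each other. The difference between nuclear and mitochondrial genes was not tested.

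**Figure D5:**
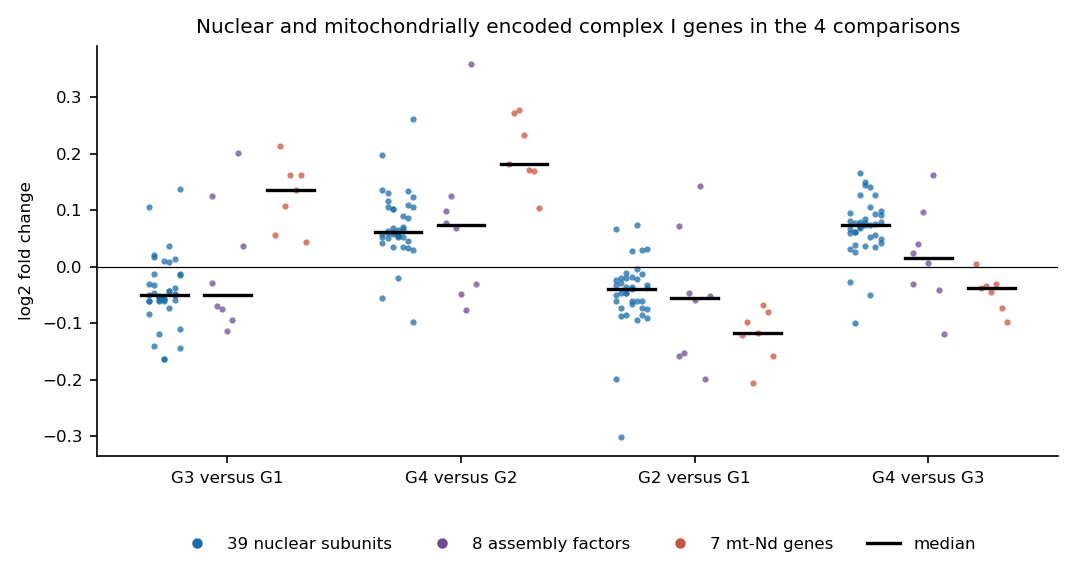
log2 fold change (y axis) of the 39 nuclear subunits, the 8 assembly factors and the 7 mt-Nd genes (1 point per gene, black bars for medians) in the 4 comparisons. In G3 versus G1 the median is -0.05 for nuclear subunits and 0.14 for mt-Nd genes, and in G4 versus G3 it is 0.07 and -0.04, which turns to -0.02 and 0.01 with the trend on GC content, length and total taken out.

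Over all genes tested, 0.00345% to 1.38% were called in the 4 comparisons, and the other known assembly factors of complex I gave no call either. Of 12 symbols listed for them, 10 were found. They include Acad9, Ecsit and Tmem126b, which work with Ndufaf1 on the membrane arm, and Nubpl, which delivers iron-sulfur clusters. Their medians were -0.01 in G3 versus G1, 0.03 in G4 versus G2, -0.02 in G2 versus G1 and 0.03 in G4 versus G3. The value farthest from 0 was that of Nubpl in G4 versus G3, with a log2 of -0.47 and an SE of 0.25 at a mean of 55.0 reads per library. A list of 6 genes tied to the amount of mitochondria or to their biogenesis was read as well. Citrate synthase (Cs) had a log2 of 0.02 in G3 versus G1 and 0.06 in G4 versus G2. It had -0.05 in G2 versus G1 and -0.01 in G4 versus G3, with an SE of 0.05 in each. The mitochondrial pore Vdac1 had -0.01, 0.03, 0.00 and 0.05 with an SE of 0.09, and Ppargc1a, a coactivator of mitochondrial biogenesis, had -0.44, 0.61, -0.24 and 0.81 with an SE of 0.50, in the same order of comparisons. None of the 6 was called. All 6 were positive in G4 versus G2 (median 0.09) and 4 of 6 in G3 versus G1 (0.03). In G2 versus G1, 1 of 6 was positive (median -0.06), and in G4 versus G3, 3 of 6 were (0.02).

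Promoters of the members were searched for 4 motifs of factors known to act on nuclear respiratory genes. RefSeq entries on GRCm38.p6, from 250 bases before to 50 after the gene's start, were matched for 41 of 47 members and searched on both strands. The core of the NRF-1 motif, GCATGCGC, was found in 5 of 41 (12.2%), against 2.71% of 32851 promoters, in Ndufa6, Ndufa8, Ndufa11, Ndufaf4 and Ndufaf5. The YY1 motif AAGATGGCG was found in 6 (14.6%) against 1.40%, in Ndufa9, Ndufc1, Ndufs4, Ndufs6, Ndufs7 and Ndufaf8. The ETS motif CCGGAAGT was found in Ndufs3 alone (2.44% against 3.89%) and the ERR motif TCAAGGTCA in none (0.423% of all). Members with the NRF-1 core or the YY1 motif include genes with a low unadjusted p and genes without one. The promoters of Ndufs4 (chr13:114388045-114388344, minus strand) and of Ndufa11 (chr17:56717512-56717811, plus strand) are shown, as those of 2 genes with an unadjusted p under 0.05 that hold one of these motifs. Capitals mark the YY1 motif in Ndufs4, which begins at base 36 counted from the start, and in Ndufa11 a pair of overlapping NRF-1 cores, 1 on each strand.
Ndufs4: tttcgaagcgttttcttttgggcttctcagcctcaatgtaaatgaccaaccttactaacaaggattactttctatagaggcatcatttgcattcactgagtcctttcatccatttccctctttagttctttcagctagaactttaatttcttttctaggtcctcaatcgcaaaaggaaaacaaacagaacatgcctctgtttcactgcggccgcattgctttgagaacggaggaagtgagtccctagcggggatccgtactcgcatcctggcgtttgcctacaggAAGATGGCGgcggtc
Ndufa11: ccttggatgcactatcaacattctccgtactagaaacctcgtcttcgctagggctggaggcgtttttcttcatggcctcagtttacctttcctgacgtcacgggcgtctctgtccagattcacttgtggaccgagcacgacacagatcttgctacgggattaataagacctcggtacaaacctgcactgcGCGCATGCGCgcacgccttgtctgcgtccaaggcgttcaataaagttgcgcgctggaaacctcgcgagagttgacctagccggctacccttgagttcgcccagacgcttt
A match is a match of letters in this window and was not set against any binding data.

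Marker genes of other cell types were measured throughout, with none of those listed at 0. None was called in the 4 comparisons, where 0.00345% to 1.38% of the genes tested were. The 5 slow fibre genes were all positive in G2 versus G1 (median log2 0.32) and in G4 versus G3 (0.11), all negative in G4 versus G2 (-0.18), and 3 of 5 were positive in G3 versus G1 (0.03). In G2 versus G1, 3 of the 5 had an unadjusted p under 0.05, where 2.35% of the 15494 genes did. Myh7 was among them (log2 0.49, SE 0.14). The 5 fast fibre genes were all negative in G3 versus G1 (median -0.33), G4 versus G2 (-0.13) and G2 versus G1 (-0.13), and all positive in G4 versus G3 (0.09). In G3 versus G1, 2 of the 5 had an unadjusted p under 0.05, where 5.63% of the 15494 genes did. The summed level of the slow fibre genes was 20020 CPM in G4, 18668 in G3, 23743 in G2 and 18261 in G1, and that of the fast fibre genes was 25403 in G4, 23320 in G3, 28040 in G2 and 31022 in G1. The 4 adipocyte genes summed to 28.3 in G4, 26.0 in G3, 27.1 in G2 and 45.3 in G1. Cfd had the highest total of the 4. In G3 versus G1 it had a log2 of -1.29, and the others ran from -0.27 to -0.01. In G2 versus G1 all 4 ran from -0.78 to -0.56. In G4 versus G2, 3 of 4 were positive (median 0.48), with Cfd at -0.31. The 5 endothelial genes summed to 432 in G4, 405 in G3, 367 in G2 and 397 in G1, and the 4 macrophage genes to between 19.5 in G4 and 26.0 in G1. The endothelial genes were all positive in G4 versus G2 (median log2 0.23) and in G4 versus G3 (0.05). They were all negative in G2 versus G1 (-0.17), and 2 of 5 were positive in G3 versus G1. The 3 erythroid genes summed to 86.8 in G4, 98.8 in G3, 66.7 in G2 and 109 in G1. In G2 versus G1 all 3 were negative (median log2 -0.72) with an unadjusted p under 0.05, where 2.35% of the 15494 genes had one. In G4 versus G2 all 3 were positive (median 0.40), none with an unadjusted p under 0.05. The part of these cell types in the complex I values was not tested.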

How the data were processed

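Soleus RNA of 12 mice was sequenced from stranded mRNA libraries. Per the submitters' processing notes, the tools were Bowtie2 2.1.0, RSEM 1.2.15 and an edgeR whose version is not stated, with the mm10 or GRCm38 build. The sources used here do not say which of them gave which column. Per the file headers, the 4 deposited tables list for each gene the total, the signed fold and log2 fold changes, and p-values before and after step-up adjustment. The totals are a signal the authors made by normalising reads and summing them over the 12 libraries. The p-values and log2 values are as the authors deposited them, and the table of G2 versus G1 has 15652 genes. With no value per library, the planned quasi-likelihood test could not be run and the authors' p-values were used.

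From these, the SE of a log2 was derived from its p-value under a normal distribution. Positive values of G2 versus G1 and the interaction were rebuilt from the other comparisons. Where both could be had (7792 genes, total 100 or more) the rebuilt log2 differed from the deposited one by at most 1.02e-14. The interaction was adjusted by the Benjamini-Hochberg procedure over 15494 genes. Group means follow from the total and the log2 values, taking 3 mice a group, and levels use the median length of a gene's basic coding transcripts in GENCODE M21, where 28058 symbols matched 1 gene. Trends were removed with splines of 4 degrees of freedom on GC content, log length and log total over 15494 genes where matched. Copies were found with BLAST 2.17.0 at an identity of at least 95% over at least 80% of the shorter sequence. Genes with an adjusted p under 0.05 are called. The text names any called member, the 3 highest and 3 lowest subunits, the highest and lowest assembly factor and the lowest p in each comparison, the 5 highest and 5 lowest levels, Nox1 and Cdh5. Other members are named as examples of their module, and 1 member, which counts in the summaries, is not reported here by itself. The members and lists were chosen with earlier results of these data known. The rebuilding, the trend removal and the group means were run on simulated data. For the rebuilding and the trend removal this checks the code only, since the simulated data had the form these steps assume. Python 3.11.15, numpy 2.4.6, pandas 2.3.3, scipy 1.17.1 and patsy 1.0.2 were used.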

Additional observations from a re-analysis of the deposited data

How the results depend on the processing

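The alternatives were another set of genes for the adjustment, an adjusted p of 0.1, no filter or a minimum total of 1000, centring on the median of all genes, removal of the trend on GC content, length and total, and leaving out Ndufa4 and Ndufa4l2 or the members with copies. Adding the reads of copies to their member, chosen after the data were seen, is counted with them for the subunit medians. At an adjusted p of 0.1, 1 member was called in G4 versus G2 (Ndufa3) in place of 0. With the trend removed, the median log2 of the subunits in G4 versus G3 was -0.0225 in place of 0.0735, that in G3 versus G1 was 0.00 in place of -0.05, and that of the assembly factors in G4 versus G3 was -0.04 in place of 0.02. The subunit median was then also 0.01 in place of 0.06 in G4 versus G2 and 0.02 in place of 0.12 in the interaction. Apart from the call of Ndufa3 and the subunit median in G4 versus G3, the 67 summary values under these alternatives kept their count of calls or changed by less than the median SE of their genes, which covers the sign changes in G3 versus G1 and in the assembly factors. Part of this was fixed in advance. No member has a total under 1000, so the settings on totals left every median as it was. Centring shifted the medians by only 0.007 or less. For single members, only centring and removal of the trend were tried. Centring shifted values by 0.007 or less, below the SE of every member, so each change beyond the SE came from removing the trend. Of the values of single members under both, 430 changed by less than the gene's own SE and 40 by more. The cause was not tested. Leaving out a library was not run, since the tables hold no value per library. No paired analysis was possible because the tables hold no value per library and the labels pair no animals. Assembly factors, with totals from 1693, had a median SE of 0.14 in G4 versus G2, against 0.08 for subunits.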
